A study of Mus musculus with 8 samples.

Results

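The cholesterol and fatty acid synthesis genes described here are 35 genes of sterol and lipid synthesis that SREBP transcription factors are known to drive or that regulate SREBPs, chosen by symbol from the 39017 genes of the table. All 35 were found, 34 by symbol and Msmo1 by its gene ID, since the table lists it as Sc4mol. They were measured by RNA-seq of iGBs, germinal center-like B cells that were grown from splenic B cells of C57BL6/J mice on 40LB feeder cells with 1 ng/mL IL-4 and collected by elutriation at day 4. The 40LB cells are fibroblasts that express CD40L and BAFF. The 4 Prmt5-null cultures came from Prmt5 F/F Cγ1-cre mice 10617, 10618, 10770 and 10771, and the 4 control cultures from Cγ1-cre mice CTRL-10650, CTRL-10370, then CTRL-10596 and CTRL-10597. Both groups carry the Cγ1-cre allele, which acts in B cells once they are activated, and the labels give Prmt5 as excised in the activated cells. Each culture came from 1 mouse. Values of single libraries follow that order of mice throughout. They are normalized counts, reads on the exons of a gene divided by a size factor of the library, and they are compared between genes only after division by exonic length.

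Cells make cholesterol from acetyl-CoA through mevalonate, isoprenoids, squalene and lanosterol, and fatty acids from citrate-derived acetyl-CoA. SREBPs, encoded by Srebf1 and Srebf2, are membrane-bound transcription factors of the endoplasmic reticulum. When sterols are low, Scap carries them to the Golgi for cleavage and their released domain enters the nucleus and activates these genes, whereas Insig proteins hold Scap back when sterols are high. Dividing B cells need both products for new membranes.

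Prmt5, the arginine methyltransferase gene deleted in these cells, had 1291, 1994, 1060.3 and 1808 normalized counts in the Prmt5-null libraries and 13087, 11084, 11657 and 11267 in the controls (log2 fold change -2.98, SE 0.17, adjusted p = 6.14e-06, limma). Every Prmt5-null library was therefore far below every control. Totals of reads on genes were 42752293 to 47174851 in Prmt5-null and 36731721 to 50366174 in control libraries. The B cell genes Cd79b (27528 to 35120.0 normalized counts in Prmt5-null and 26939.7 to 30592 in control libraries) and Ms4a1 (35230.5 to 53860.1 normalized counts in Prmt5-null and 42649.9 to 49419.6 in control libraries) were abundant in all libraries. Another B cell gene, Cd79a, was lower in Prmt5-null iGBs (log2 fold change -0.74).

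Most of the 35 genes were lower in Prmt5-null iGBs. The estimate was below 0 for 32 and above 0 for 3, and the median log2 fold change was -0.42, against 0.0024 over all 16250 genes tested. Calls required a change of at least 1.5-fold and an adjusted p below 0.05 (limma, Benjamini-Hochberg over all genes tested). By this rule 10 of the 35 were called lower, where 2.99% of all tested genes were, and 1 was called higher, Lpin1, where 3.49% of all were. Without the minimum fold, 24 were lower, against 7.33% of all genes, and 1 was higher, against 6.51%. The 35 genes were more abundant than most, with a median of 5004 normalized counts against 706 over all tested genes, and abundant genes are measured with less error. Among genes with a mean of at least 500, 24 of 34 members were lower at an adjusted p below 0.05, against 9.12% of 9040 genes. In 23 of the 35 every Prmt5-null library was below every control, which held for 10.2% of all tested genes, and in 2 (Scap and Lpin1) every one was above, against 9.67%. The remaining 10 overlapped. In bulk RNA, fewer cells of a type and less RNA per cell cannot be told apart.

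**Figure D1:**
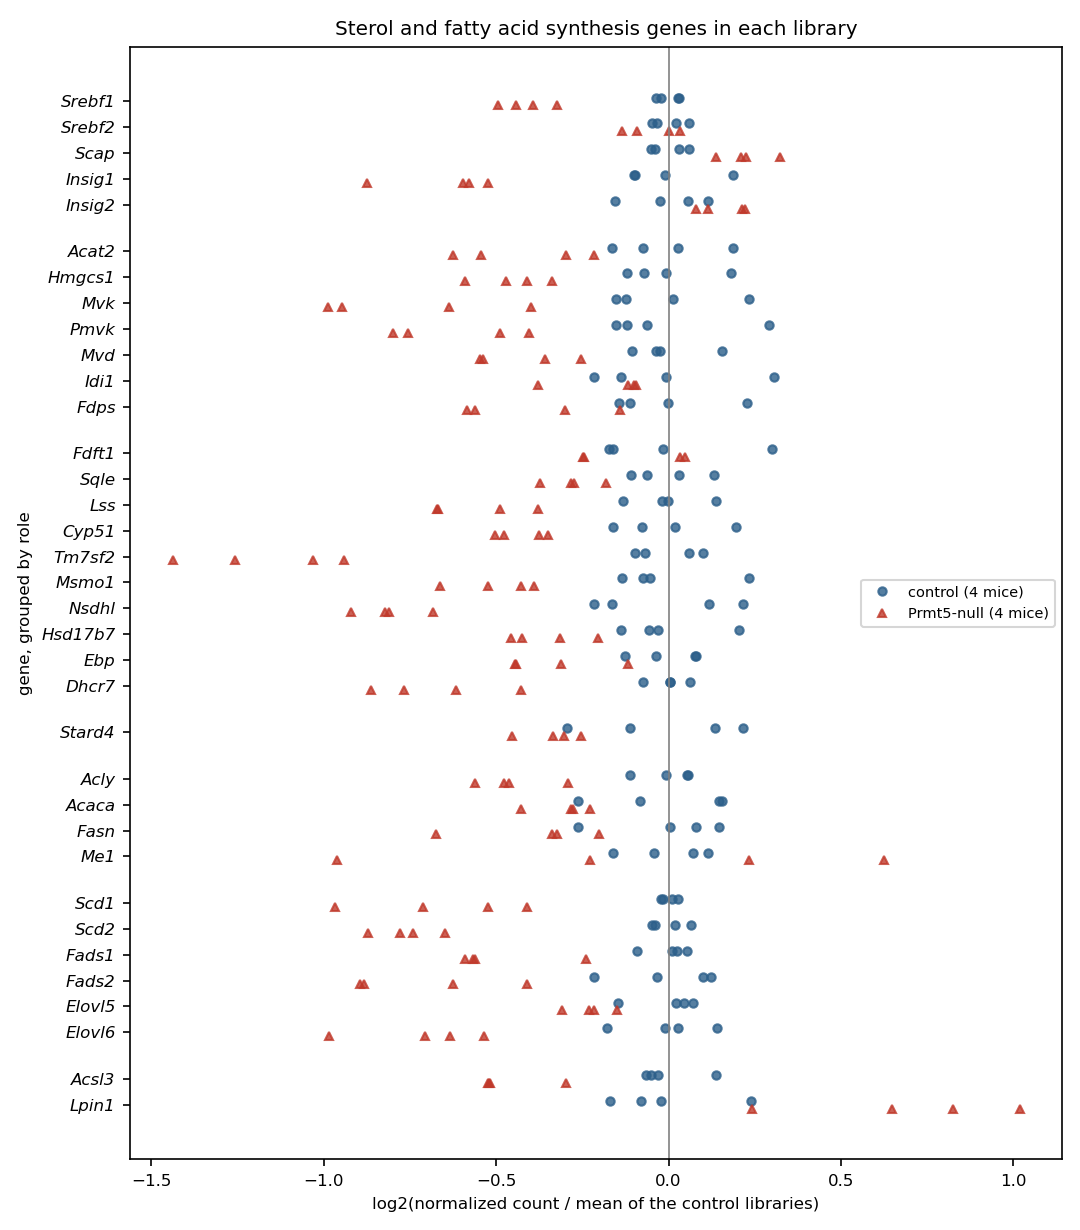
Level of each of the 35 genes in each library, as the log2 ratio of its normalized count to the mean of the 4 controls, with circles for control and triangles for Prmt5-null mice, grouped by role. The triangles of 23 genes lie wholly to the left of the circles, those of Tm7sf2 the farthest, and those of Lpin1 lie to the right.

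Among the regulators, 2 of 5 were lower at an adjusted p below 0.05 and 1 of them, Insig1, passed 1.5-fold. Insig1 (chr5:28071363-28078662, GRCm38), whose product retains Scap in the endoplasmic reticulum and which is itself an SREBP target, had 8133, 7728, 7826 and 6371 normalized counts in the Prmt5-null libraries and 10907, 13318, 10934 and 11606 in the controls. All Prmt5-null libraries were below all controls, at 7514 ± 781 against 11691 ± 1132 normalized counts (SD, n = 4 each) (log2 fold change -0.64, SE 0.10, adjusted p = 0.00125). Its change fell under 1.5-fold without Prmt5-null 10771 (-0.56 on the log2 scale, adjusted p = 0.0046 by limma) or without CTRL-10370 (-0.57, adjusted p = 0.00397). Its paralog Insig2 had 626, 641, 691 and 687 normalized counts in the Prmt5-null libraries and 641, 531, 615 and 582 in the controls, ranges that overlap (log2 fold change 0.16, SE 0.10, adjusted p = 0.292).

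Srebf1 (chr11:60199089-60222581), which encodes the SREBP isoforms tied mostly to fatty acid genes, had 5190.3, 4774, 4603 and 4939.9 normalized counts in the Prmt5-null libraries and 6329, 6394, 6629.8 and 6615 in the controls (log2 fold change -0.41, SE 0.07, adjusted p = 0.00199). Its libraries did not overlap, and its mean was 24.9% lower. Srebf2, which encodes the isoform tied mostly to sterol genes, had 11446, 10491, 10192 and 11187 normalized counts in the Prmt5-null libraries and 11644, 11356, 10807 and 10929 in the controls (log2 fold change -0.05, SE 0.07, adjusted p = 0.698), with a 95% confidence interval of the log2 fold change from -0.20 to 0.10. The Srebf2 ranges overlapped. Scap, the SREBP escort, had 6222, 5804, 5470.5 and 5749 normalized counts in the Prmt5-null libraries and 5074, 4803, 4835 and 5177 in the controls. Every Prmt5-null library was above every control for Scap, but it missed the threshold (log2 fold change 0.22, SE 0.07, adjusted p = 0.0505) by limma. It passed in 12 of 36 fits, among them those by edgeR (adjusted p = 0.0416) and DESeq2 (0.0145) and, of the 8 without 1 library, the one without Prmt5-null 10770 (0.0276, limma). The 36 fits are the main one and its alternatives, and 18 of them differ only in how libraries were placed in the study's 2 experiments. At most 1 of these 18 placements can be right, and 5 of the 12 passes for Scap came from them. Per kilobase of exonic length, control Srebf2 was at 1557 ± 53.8 and control Srebf1 at 1152 ± 27.1 normalized counts (SD, n = 4 each).

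Srebf1 also carried a deposited splicing event, a retained intron of 80 bases (chr11:60203266-60203345, minus strand, GRCm38). It lies between coding exons and within an exon of 1 GENCODE transcript, the noncoding Srebf1-211. Its sequence is shown because it is the stretch left in the RNA, with the first and last 2 bases, the splice site dinucleotides, in capitals.
Srebf1 retained intron: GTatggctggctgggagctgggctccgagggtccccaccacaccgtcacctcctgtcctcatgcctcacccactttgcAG
The authors' inclusion levels, the estimated fraction of transcripts that keep the intron, were 0.097, 0.192, 0.125 and 0.151 in control and 0.316, 0.345, 0.288 and 0.374 in Prmt5-null libraries. The file names no library and gives the groups only as sample 1 and sample 2. Sample 1 was taken as control because the inclusion level difference is described as control relative to Prmt5-null, and every direction given for a splicing event rests on that assignment. The levels of the groups did not overlap, with means of 0.141 and 0.331 over 1197 reads in all. The authors deposited events for their difference, so these levels are a description without a test. Whether reads in the intron were counted toward the Srebf1 level was not tested.

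The 7 genes of the mevalonate and isoprenoid steps, which turn acetyl-CoA into farnesyl diphosphate, all had estimates below 0, and 6 of 7 were lower at an adjusted p below 0.05. Mvk and Pmvk, the kinases that phosphorylate mevalonate in succession, passed 1.5-fold. Mvk (chr5:114444269-114460591) had 1197, 796, 1016 and 819 normalized counts in the Prmt5-null libraries and 1593, 1856, 1449 and 1419.6 in the controls (log2 fold change -0.73, SE 0.14, adjusted p = 0.00455). Its highest Prmt5-null library, mouse 10617, was still below its lowest control. Pmvk (chr3:89454541-89469013) had 1543, 1243, 1637 and 1282 normalized counts in the Prmt5-null libraries and 1990.4, 2651, 1949 and 2073 in the controls (log2 fold change -0.60, SE 0.12, adjusted p = 0.00679). The groups did not overlap for Pmvk, though its change fell under 1.5-fold without Prmt5-null 10618 (-0.54 on the log2 scale), Prmt5-null 10771 (-0.55) or CTRL-10370 (-0.50).

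Hmgcs1, the cytosolic HMG-CoA synthase and the most abundant of these 7 per kilobase, had 13578, 12906, 12376 and 11406 normalized counts in the Prmt5-null libraries and 16334, 19462, 15803 and 17086 in the controls (log2 fold change -0.45, adjusted p = 0.00546, limma). Mvd, which decarboxylates diphosphomevalonate, ranged from 2836 to 3477 normalized counts in Prmt5-null and 3849 to 4612 in control libraries (log2 fold change -0.42, adjusted p = 0.00893). Neither gene overlapped between the groups. Acat2, the cytosolic thiolase that starts the pathway, ranged from 4901 to 6504 normalized counts in Prmt5-null and 6748 to 8594 in control libraries (log2 fold change -0.41, adjusted p = 0.023), and it missed the threshold without Prmt5-null 10771 (adjusted p = 0.0773), CTRL-10370 (0.0661) or CTRL-10597 (0.0583). Fdps, the farnesyl diphosphate synthase, overlapped at 6452 to 8773 normalized counts in Prmt5-null and 8754 to 11335 in control libraries. Its fall (log2 fold change -0.39, adjusted p = 0.0417, limma) was the least stable of the 7. It passed in 18 of 36 fits, edgeR and DESeq2 included, and 9 of these 18 passes came from placements of the experiments. Of the 8 fits without 1 library it passed only in the one without Prmt5-null 10770, and its adjusted p ranged from 0.00972 to 0.124 over those fits. Idi1, the isopentenyl diphosphate isomerase, had 8969, 9119, 9077 and 7483 normalized counts in the Prmt5-null libraries and 8851, 9683, 8383 and 12036 in the controls, with 3 Prmt5-null libraries inside the control range (log2 fold change -0.16, adjusted p = 0.38).

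Fdps and Idi1 also carried a deposited cassette exon each. The Fdps exon (216 bases, chr3:89100921-89101136, minus strand) lies in an exon of 3 GENCODE transcripts and is wholly coding in none. Its inclusion levels were 0.357, 0.365, 0.318 and 0.305 in control and 0.175, 0.231, 0.139 and 0.204 in Prmt5-null libraries, over 2581 reads. Inclusion was thus lower in every Prmt5-null library. The Idi1 exon (93 bases, chr13:8887485-8887577) rested on 62 reads in all, with as few as 2 in a library, and its levels overlapped.

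The 10 genes from squalene to cholesterol showed the largest single fall of the 35 genes. All 10 had estimates below 0, 9 were lower at an adjusted p below 0.05 and 3 passed 1.5-fold. Tm7sf2 (chr19:6062821-6068373), a sterol C14 reductase, had 395, 372, 280.2 and 318 normalized counts in the Prmt5-null libraries and 709.8, 814, 791 and 724 in the controls (log2 fold change -1.16, SE 0.12, adjusted p = 0.000164). It was 55.1% lower in the mean, and the gap between the groups was wider than the spread within either. Nsdhl (chrX:72918557-72958514), the dehydrogenase that removes the C4 carboxyl group, had 2011, 1824, 1840.4 and 1702 normalized counts in the Prmt5-null libraries and 2879, 3745, 2778 and 3503 in the controls (log2 fold change -0.80, SE 0.10, adjusted p = 0.000559). Dhcr7 (chr7:143823145-143848410), the reductase that completes cholesterol from 7-dehydrocholesterol, had 726, 575, 538 and 637 normalized counts in the Prmt5-null libraries and 980.1, 981, 928 and 1021 in the controls (log2 fold change -0.67, SE 0.10, adjusted p = 0.0017). For all 3 genes every Prmt5-null library was below every control, and the call held whichever single library was left out.

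Lss, which closes the sterol ring to give lanosterol, had 7435, 6081, 6890.1 and 6069 normalized counts in the Prmt5-null libraries and 9544, 10634, 8819 and 9655 in the controls (log2 fold change -0.55, SE 0.09, adjusted p = 0.00193), apart in every library. It reached 1.5-fold when Prmt5-null 10617 (-0.61 on the log2 scale) or CTRL-10596 (-0.59) was left out. Msmo1, the C4 methyl oxidase, had 6788, 6186, 6609 and 5615 normalized counts in the Prmt5-null libraries and 8569, 10455, 8095 and 8444 in the controls (log2 fold change -0.49, SE 0.09, adjusted p = 0.00532), also apart. Cyp51, the lanosterol demethylase, ranged from 14784 to 16429.9 normalized counts in Prmt5-null and 18754 to 23989 in control libraries (log2 fold change -0.42, adjusted p = 0.00798). The groups were apart in every library for Cyp51 too.

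Sqle, the squalene epoxidase, ranged from 7273 to 8312 normalized counts in Prmt5-null and 8742 to 10314 in control libraries (log2 fold change -0.27, adjusted p = 0.0341, limma). Hsd17b7, the sterol 3-ketoreductase, ranged from 1652 to 1969 normalized counts in Prmt5-null and 2062 to 2611 in control libraries (log2 fold change -0.35, adjusted p = 0.0294). Both were apart, by gaps smaller than the spread within a group. Ebp, the sterol isomerase, ranged from 1421 to 1784 normalized counts in Prmt5-null and 1770.4 to 2043 in control libraries and overlapped (log2 fold change -0.33, adjusted p = 0.0379). These 3 falls were near the threshold. Sqle lost it without Prmt5-null 10618 or 10771 or CTRL-10650, CTRL-10370 or CTRL-10597, Hsd17b7 without Prmt5-null 10617 or 10771 or CTRL-10370, CTRL-10596 or CTRL-10597, and Ebp without any library other than Prmt5-null 10770 and CTRL-10597. Their adjusted p then reached 0.111, 0.0937 and 0.114. Fdft1, the squalene synthase, was the exception among the 10, with 5625, 4595, 5570.0 and 4589 normalized counts in the Prmt5-null libraries and 5385, 6706, 4833 and 4867 in the controls (log2 fold change -0.09, adjusted p = 0.646, 95% confidence interval -0.34 to 0.16). Of its exonic bases, 18.3% are shared with Ctsb on the opposite strand. Stard4, which moves cholesterol between membranes, overlapped at 2633 to 3023 normalized counts in Prmt5-null and 2942 to 4187 in control libraries (log2 fold change -0.32, adjusted p = 0.068) by limma. It passed in 5 of 36 fits, 3 of them placements of the experiments. The others were the one by DESeq2 (adjusted p = 0.0327) and, of the 8 without 1 library, the one without CTRL-10596 (0.0243, limma).

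**Figure D2:**
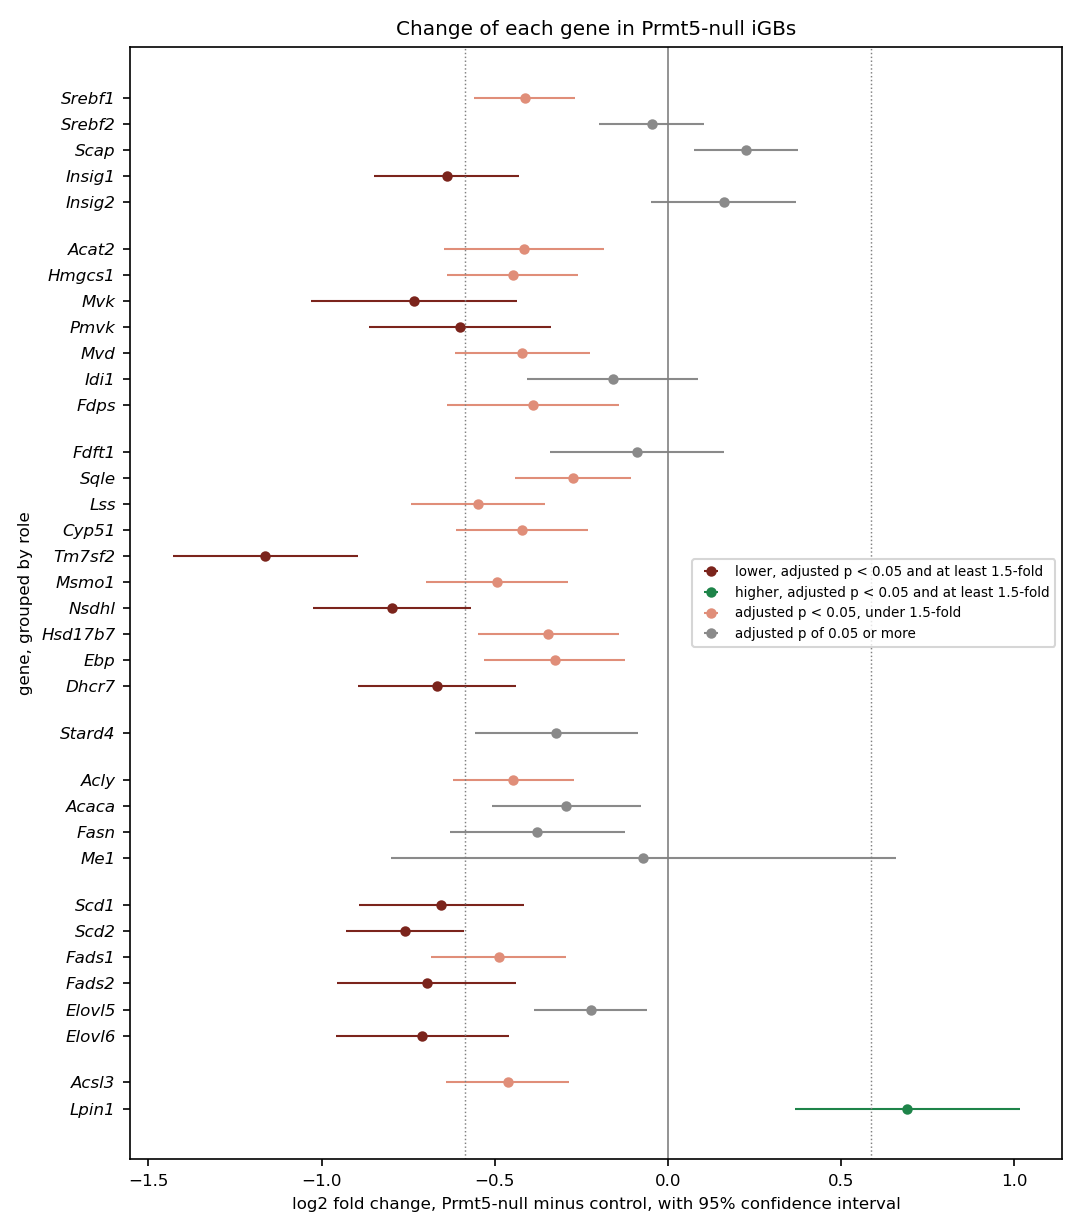
Log2 fold change of each gene, Prmt5-null minus control, with its 95% confidence interval, grouped by role. Dotted lines mark 1.5-fold, and colours give the limma call: 10 genes lower and 1 higher, with Tm7sf2 at -1.16 and Lpin1 at 0.69 at the ends.

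Since most of these genes moved together, the 250 bases before their RefSeq start sites (GRCm38.p6) were searched for 4 motifs on both strands. The table held 37 promoters of 28 of the 35 genes. The SRE core TCACNCCAC, an SREBP binding motif, was in 1 of 37 (2.7%) against 1.05% of all 32851 promoters, the one being that of Hmgcs1. The E-box CACGTG, which SREBP-1 can also bind, was in 5 of 37 (13.5%) against 6.02% of all 32851. CCAAT, the site of the SREBP partner NF-Y, was in 22 of 37 (59.5%) against 33.8% of all 32851, and the Sp1 motif GGGCGG in 25 of 37 (67.6%) against 32.7% of all 32851. A match describes letters and not binding, and a window without one says nothing about the factor. The shares over all promoters cover genes of any level in these cells. Promoters of genes as abundant as the members were not compared. Promoters of 1 gene were counted separately, and of the 28 genes 21 held CCAAT and 22 GGGCGG. Over the whole 300-base window of the table, searched first, the shares were 2.7% of members' promoters against 1.24% for the SRE core, 16.2% of members' promoters against 7.15% for the E-box, 62.2% of members' promoters against 37.4% for CCAAT and 70.3% of members' promoters against 35.7% for GGGCGG. Shown are the Hmgcs1 promoter and, of the others in the table, those of the 3 genes with the smallest adjusted p, with all matches in capitals.
Hmgcs1 promoter, chr13:119690101-119690350 (+ strand): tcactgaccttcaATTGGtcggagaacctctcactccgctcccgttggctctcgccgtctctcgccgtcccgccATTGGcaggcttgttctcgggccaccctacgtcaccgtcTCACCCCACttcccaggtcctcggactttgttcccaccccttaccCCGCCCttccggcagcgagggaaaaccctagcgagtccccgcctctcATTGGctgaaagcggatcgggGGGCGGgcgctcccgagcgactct
Tm7sf2 promoter, chr19:6067851-6068100 (- strand): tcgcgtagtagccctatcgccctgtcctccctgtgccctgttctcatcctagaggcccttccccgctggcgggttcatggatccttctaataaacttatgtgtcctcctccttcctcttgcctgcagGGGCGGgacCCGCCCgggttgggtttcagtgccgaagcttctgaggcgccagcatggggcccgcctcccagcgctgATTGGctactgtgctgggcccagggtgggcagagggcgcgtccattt
Nsdhl promoter, chrX:72918271-72918520 (+ strand): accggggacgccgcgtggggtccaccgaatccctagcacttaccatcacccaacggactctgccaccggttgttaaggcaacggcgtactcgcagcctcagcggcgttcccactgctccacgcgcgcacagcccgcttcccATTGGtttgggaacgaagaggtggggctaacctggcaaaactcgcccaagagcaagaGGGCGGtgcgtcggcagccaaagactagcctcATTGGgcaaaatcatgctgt
Insig1 promoter, chr5:28071162-28071411 (+ strand): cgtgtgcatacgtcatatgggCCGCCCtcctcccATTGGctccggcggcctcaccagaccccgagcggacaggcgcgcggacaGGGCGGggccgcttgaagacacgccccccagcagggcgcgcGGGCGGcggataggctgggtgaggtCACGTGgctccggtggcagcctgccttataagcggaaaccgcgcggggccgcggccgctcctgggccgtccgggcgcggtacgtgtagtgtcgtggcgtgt
Hmgcs1 holds the SRE core, 3 CCAAT and 2 GC boxes, Tm7sf2 1 CCAAT and 2 GC boxes, Nsdhl 2 CCAAT and 1 GC box, and Insig1 an E-box, 1 CCAAT and 3 GC boxes. The GENCODE models of Tm7sf2 and Insig1 begin upstream of the RefSeq starts used, so their windows overlap the annotated gene. In all 4 the CCAAT boxes lie on the opposite strand and read ATTGG.

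The 4 genes of fatty acid synthesis proper had estimates below 0, but 1 of 4 passed the test by limma. Acly, which splits citrate to give cytosolic acetyl-CoA, had 17553, 15409, 14544 and 15575 normalized counts in the Prmt5-null libraries and 22345, 21378, 19878 and 22298 in the controls (log2 fold change -0.45, SE 0.08, adjusted p = 0.00373), with no overlap. Fasn, the fatty acid synthase, had 27376, 25165, 19754 and 24915 normalized counts in the Prmt5-null libraries and 33316, 26265, 31615 and 34850.1 in the controls (log2 fold change -0.38, adjusted p = 0.0509, limma). Acaca, the acetyl-CoA carboxylase that makes malonyl-CoA, had 4542, 4557, 4105 and 4721 normalized counts in the Prmt5-null libraries and 6121, 4608, 5217 and 6157 in the controls (log2 fold change -0.29, adjusted p = 0.0694). In both, CTRL-10370 was the lowest control and lay within the Prmt5-null range. Without it the adjusted p was 0.0265 for Fasn and 0.0229 for Acaca, and Fasn also passed without Prmt5-null 10617 (0.0488). Fasn passed in 10 of 36 fits, 7 of them placements of the experiments, and Acaca in 6, 4 of them placements. Both passed by DESeq2 (adjusted p = 0.0196 for Fasn and 0.0397 for Acaca) and missed by edgeR (0.0574 and 0.0614). Me1, the cytosolic malic enzyme that supplies NADPH, was barely expressed, at 12.3 to 36.8 normalized counts in Prmt5-null and 21.3 to 25.8 in control libraries, and its change was not measurable at this depth (log2 fold change -0.07, 95% confidence interval -0.80 to 0.66).

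Acly carried a cassette exon of 30 bases, coding in Acly-202 and Acly-203 (chr11:100503160-100503189, minus strand). Its sequence is given in capitals as the stretch that is kept or skipped.
Acly cassette exon: ATTCAGTCCCAAGTCCAAGATCCCTGCAAG
Inclusion levels were 0.611, 0.645, 0.612 and 0.644 in control and 0.764, 0.737, 0.736 and 0.753 in Prmt5-null libraries, over 4900 reads. Every Prmt5-null level was above every control level, the direction opposite to that of the Fdps exon. In all, 4 of the 34 members with a mean above 50 carried a deposited event, near the 11.4% of all genes above that mean that did.

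**Figure D3:**
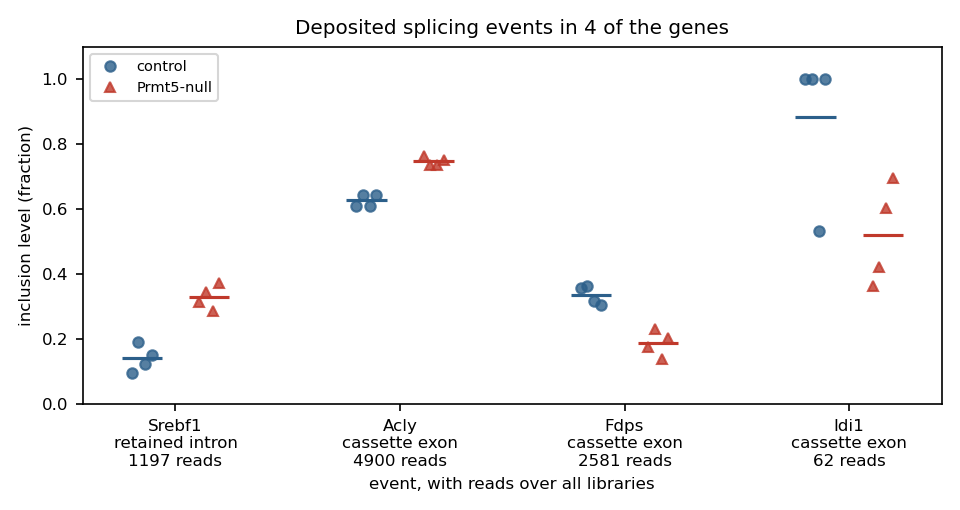
Inclusion level of the 4 deposited splicing events, with 1 point per library, circles for control and triangles for Prmt5-null, and a line at the mean. Srebf1 intron retention rises from a mean of 0.141 to 0.331, the Acly exon is included more and the Fdps exon less, and Idi1 rests on 62 reads.

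The genes that desaturate and elongate fatty acids gave the lowest median of the groups with more than 1 gene (-0.68 on the log2 scale). Of these 6, 5 were lower at an adjusted p below 0.05, 4 passed 1.5-fold, and all 6 were apart between the groups. Scd2 (chr19:44293674-44306864), a stearoyl-CoA desaturase that makes monounsaturated fatty acids, had 30798, 28104, 26375 and 28877 normalized counts in the Prmt5-null libraries and 50486, 48934, 46967 and 46693 in the controls (log2 fold change -0.76, SE 0.08, adjusted p = 0.000142). Scd1 (chr19:44394455-44407879), the adjacent paralog, had 21182, 26062, 17721 and 24115 normalized counts in the Prmt5-null libraries and 35338, 34936, 34182 and 34255 in the controls (log2 fold change -0.65, SE 0.11, adjusted p = 0.00236). The Scd1 controls lay close together while its Prmt5-null libraries spread widely, and without Prmt5-null 10770 its change was -0.55 on the log2 scale, under 1.5-fold (adjusted p = 0.00122, limma). Reads that both paralogs share were not counted if they mapped equally well to each, so their separate levels are uncertain to that extent.

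Fads2 (chr19:10062765-10101746), the delta-6 desaturase of polyunsaturated fatty acids, had 2166, 1548, 1865 and 1560.1 normalized counts in the Prmt5-null libraries and 2813, 3086, 2479 and 3134 in the controls (log2 fold change -0.70, SE 0.12, adjusted p = 0.00267). Its neighbour Fads1, the delta-5 desaturase, had 2435, 1948, 1942 and 1911 normalized counts in the Prmt5-null libraries and 2898, 2924, 2699 and 2987 in the controls (log2 fold change -0.49, SE 0.09, adjusted p = 0.00427). For both, mouse 10617 was the highest Prmt5-null library and still below every control. Elovl6 (chr3:129532355-129638495), which elongates palmitate, had 588, 618, 485 and 662 normalized counts in the Prmt5-null libraries and 953, 978, 848 and 1058 in the controls (log2 fold change -0.71, SE 0.11, adjusted p = 0.00193). Elovl5, which elongates polyunsaturated fatty acids, was lower by less, at 3254 to 3638 normalized counts in Prmt5-null and 3645 to 4232 in control libraries, with a narrow gap between the groups, and missed the threshold (log2 fold change -0.22, adjusted p = 0.067). It passed in 3 of 36 fits, 1 of them a placement of the experiments. The others were the one by DESeq2 (adjusted p = 0.0341) and, of the 8 without 1 library, the one without CTRL-10596 (0.0484, limma).

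The last 2 genes moved in opposite directions. Acsl3, which activates fatty acids to acyl-CoA, had 2535, 2541, 2958 and 2531 normalized counts in the Prmt5-null libraries and 3477, 4006, 3511 and 3559.7 in the controls (log2 fold change -0.46, SE 0.08, adjusted p = 0.00334). Lpin1 (chr12:16535669-16610966), the phosphatidate phosphatase of triacylglycerol and phospholipid synthesis, had 2104, 2719.6, 1587 and 2377 normalized counts in the Prmt5-null libraries and 1584, 1194, 1321 and 1271 in the controls (log2 fold change 0.69, SE 0.15, adjusted p = 0.0098). Lpin1 thus rose, though its lowest Prmt5-null library, 10770, exceeded its highest control by only a few counts. Without Prmt5-null 10618 the rise was 0.58 on the log2 scale (adjusted p = 0.0177, limma), just under 1.5-fold.

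Per kilobase of exonic length in control libraries, Scd2 (8834 ± 326 normalized counts, SD, n = 4) and Scd1 (7089 ± 114) were the highest of the 35, followed by Cyp51 (4747 ± 511), Acly (4068 ± 219), Insig1 (3779.9 ± 366) and Hmgcs1 (3738 ± 352). Insig1 and Hmgcs1 did not differ beyond their spread. The lowest were Me1 (6.2 ± 0.527), Lpin1 (139 ± 17.5), Elovl6 (149 ± 13.5) and Dhcr7 (168 ± 6.57). Called genes were therefore found among both the most and the least abundant members.

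The sterol and fatty acid genes shared the order of libraries only in part. Summed over the 17 genes from Acat2 to Dhcr7, the level was 93353, 84464, 92286 and 79261 normalized counts in Prmt5-null and 111348, 130485, 104784 and 115708 in control libraries. Summed over the 10 genes from Acly to Elovl6, it was 109915, 106859, 90297 and 106003 in Prmt5-null and 158450.1, 147226, 147554 and 155686 in control libraries. Neither sum overlapped between the groups. CTRL-10596 was the lowest control for 13 of the 17 sterol genes and for 6 of the 10 fatty acid genes. In contrast, CTRL-10370 was the highest control for 15 of the 17 sterol genes and for 0 of the 10 fatty acid genes. Mice 10617 and 10770 were both above the other Prmt5-null mice for 12 of the 17 sterol genes and 1 of the 10 fatty acid genes, whereas mouse 10770 was the lowest Prmt5-null library for 6 of these 10 and for 2 of the 17. The study ran 2 experiments, but the labels do not say which library belongs to which, and the part of the experiment in these orders was not tested.

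**Figure D4:**
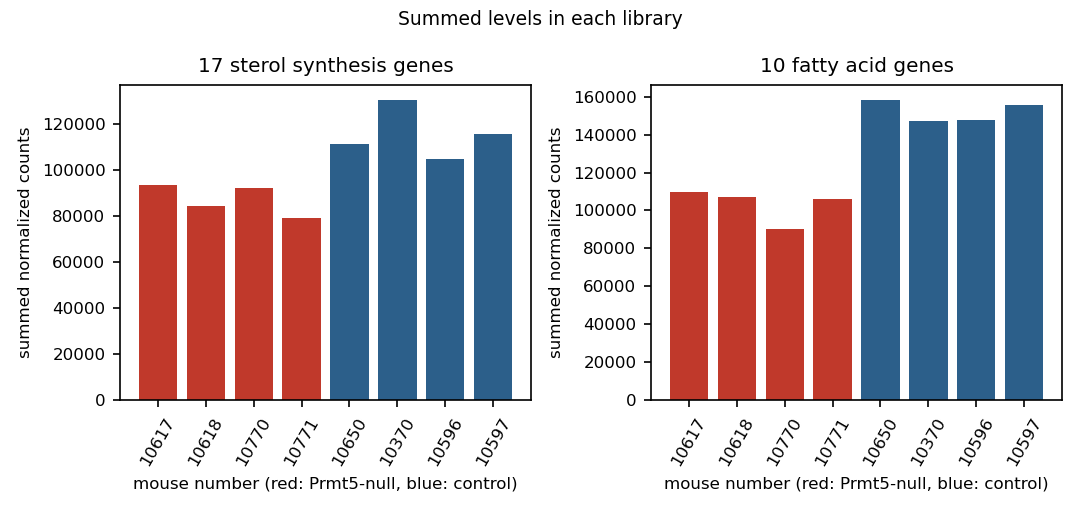
Summed normalized counts of the 17 sterol synthesis genes and the 10 fatty acid genes in each library, with red bars for Prmt5-null and blue bars for control mice. Every red bar is shorter than every blue one in both panels, and CTRL-10370 is the highest bar for sterol genes. For fatty acid genes CTRL-10370 is the lowest control by a narrow margin (147226 against 147554 for CTRL-10596). Taken singly, it is the lowest control for 2 of these 10 genes.

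Genes next to these pathways were read from 5 further lists, of which 99 of 107 genes were tested, 9 called lower and 2 called higher, beside 2.99% and 3.49% of all tested genes. Whatever the fold, 7.33% of all tested genes passed lower and 6.51% higher. Of 11 other sterol and isoprenoid synthesis genes, 10 had estimates below 0 (median -0.26), 6 passed lower and 0 higher, and 1 was called, Pdss1, which builds the side chain of coenzyme Q (415, 406, 364 and 346 against 587, 595, 572 and 661 normalized counts, log2 fold change -0.66, adjusted p = 0.00177, limma). Of 15 other genes of sterol sensing and SREBP processing, 1 passed lower and 1 higher. The former, Sec24d, a COPII coat subunit of the vesicles that leave the endoplasmic reticulum, was called (496, 613, 402 and 469.9 against 1194, 662, 1192 and 982, -1.001, adjusted p = 0.00453). These counts are near the shares of all tested genes. The median of these 15 was -0.10.

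Of 18 tested genes of sterol uptake, storage and LXR response, 3 passed lower and 1 higher. Abcg1, a sterol exporter, was called lower (log2 fold change -0.61, adjusted p = 0.0176, limma), as was Soat2, which esterifies cholesterol, at 19.6 to 36.8 normalized counts in Prmt5-null and 43.0 to 89.2 in control libraries (log2 fold change -1.04, adjusted p = 0.0402). Nr1h3, which encodes the sterol receptor LXRα, was called higher from few reads, at 26.0 to 54.1 normalized counts in Prmt5-null and 12.9 to 22.5 in control libraries (log2 fold change 1.12, adjusted p = 0.0304). These calls were lost in other fits. Nr1h3 was lost without Prmt5-null 10617, 10618 or 10771 or without CTRL-10650, CTRL-10370 or CTRL-10596 (adjusted p from 0.0647 to 0.0747). Soat2 was lost without Prmt5-null 10617 or 10771 or without CTRL-10650 or CTRL-10370 (adjusted p from 0.0885 to 0.113), and Abcg1 without Prmt5-null 10617 or without CTRL-10596 or CTRL-10597 (adjusted p from 0.0539 to 0.0587). Without the trend, Soat2 (adjusted p = 0.0533) and Abcg1 (adjusted p = 0.0554) were lost, and without a filter Soat2 (adjusted p = 0.0728) and Nr1h3 (adjusted p = 0.0697). Of 30 tested genes that also serve fatty acid synthesis, 6 passed lower and 0 higher. The 4 called were Scd3, another desaturase paralog (log2 fold change -0.74, adjusted p = 0.00434), Tecr, the last enzyme of the elongation cycle (log2 fold change -0.59, 0.00226, under 1.5-fold by edgeR, DESeq2 and quantile normalization and without Prmt5-null 10770 or 10771 or without CTRL-10650), Slc25a1, the citrate carrier (log2 fold change -0.68, 0.00442), and G6pdx, which supplies NADPH (log2 fold change -0.66, 0.00228). Of 25 tested genes of fatty acid oxidation, 3 passed lower and 1 higher, with a median of -0.04, against shares of 7.33% and 6.51% of all tested genes. Acadvl, the very long chain acyl-CoA dehydrogenase, was called lower (log2 fold change -0.69, adjusted p = 0.000269) and Cpt1c, a carnitine palmitoyltransferase paralog, higher (log2 fold change 1.05, adjusted p = 0.00468).

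**Figure D5:**
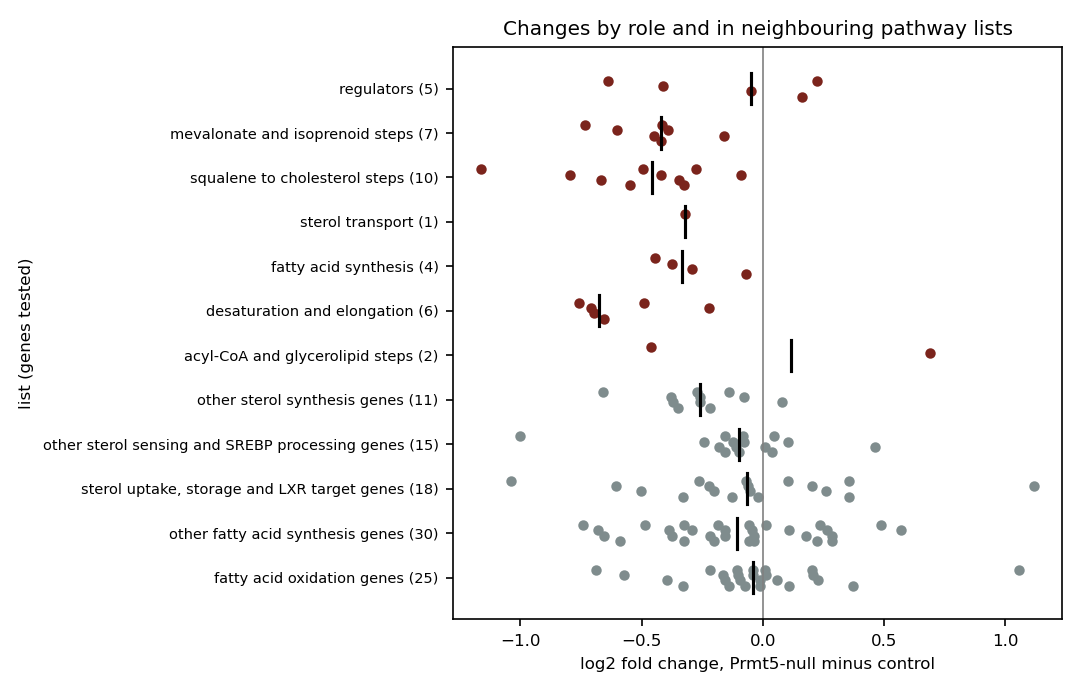
Log2 fold change, Prmt5-null minus control, of each tested gene by role (dark red, the 35 genes) and in 5 neighbouring lists (grey), with a bar at the median. The mevalonate, squalene to cholesterol and desaturation groups have medians of -0.42, -0.46 and -0.68, and the fatty acid oxidation list -0.04.

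The summed levels of the B cell, plasma cell, fibroblast and myeloid markers overlapped between the groups, and those of the germinal center-like and T cell markers did not. For the calls below, 2.99% of all tested genes were called lower and 3.49% higher. Whatever the fold, 7.33% of all passed lower and 6.51% higher. The 24 fibroblast markers, which would mark feeder cells, summed to 9004 to 15964 normalized counts in Prmt5-null and 6217 to 10342 in control libraries. In the Prmt5-null mean, 22 of 24 were higher. Of the 21 tested, 4 were called higher (Col1a2, Col3a1, Col5a2 and Sparc). The part of feeder cell RNA in the falls described and in the rise of Lpin1 was not tested. The 6 plasma cell markers summed to 37696 to 45364 normalized counts in Prmt5-null and 41183 to 58381 in control libraries. Of them 2 passed lower, Prdm1 (log2 fold change -0.48) and Xbp1 (log2 fold change -0.45), and 0 higher. In sign, 3 of the 6 were lower and 3 higher, from -0.57 to 0.40 on the log2 scale. In 1 of the higher ones every Prmt5-null library was above every control, which held for 9.67% of all tested genes. In 0 of the 6 was every one below. The 6 germinal center-like markers summed to 27708 to 28897 normalized counts in Prmt5-null and 20984 to 26447 in control libraries. Of these 6, 2 passed in each direction, and both lower ones were also called. Their log2 fold changes ran from -1.49 to 0.51, so the higher sum covers changes in both directions. The 9 B cell markers summed to 286511 to 338034 normalized counts in Prmt5-null and 332607 to 372036 in control libraries, with 1 called, Cd79a (log2 fold change -0.74). Their part in the changes was not tested either. The 9 T cell markers summed to 726 to 930.0 normalized counts in Prmt5-null and 933 to 1054 in control libraries, with Cd3e at 0 in all libraries. Of the 4 tested, Lck was called lower (log2 fold change -0.94) and Il7r higher (log2 fold change 1.79). The 11 myeloid markers summed to 724 to 959.6 normalized counts in Prmt5-null and 719 to 812 in control libraries, with S100a8 and S100a9 at 0. Of the 6 tested, Adgre1 was called higher (log2 fold change 0.70).

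Exonic bases of 13 members are shared with another annotated gene, at least 10% of them in 5: Fdps with Gm43738 (26.7%), Fdft1 with Ctsb (18.3%), Scap with 5830462I19Rik (13.2%), Hmgcs1 with Gm48342 (12.1%) and Tm7sf2 with Vps51 (12.1%). Of these 5, Gm43738 and Vps51 lie on the same strand as the member, where no strand setting separates reads on shared bases. The others lie on the opposite strand, and the strand setting of the counting is not given in the sources used here. All 5 levels are uncertain to that extent.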

How the data were processed

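RNA from 4 Prmt5-null and 4 control cultures, each of 1 mouse, was depleted of rRNA and sequenced. The authors trimmed reads (Trimmomatic 0.32), aligned them to mm10, which is GRCm38 (STAR 2.3.0e), and counted unique reads on Ensembl exons (featureCounts 1.4.4). The authors deposited a normalized signal, counts divided by DESeq2 size factors (DESeq2 1.14.1), from which whole reads were recovered for 100% of values within 0.05 reads. Deposited inclusion levels (fractions) and the read counts behind them came from rMATS on untrimmed reads, which selected events by difference. These lists name no library, give the groups as sample 1 (taken as control from the paper's wording) and sample 2, and are given without SD. The columns of the authors' own comparisons (p-values, FDR and inclusion differences) were not used.

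Genes with a mean of at least 10 (16250) were compared with limma 3.58.1 (R 4.3.3; lmFit and trended eBayes) after log2(normalized count + 1), a scale that understates changes of low genes. The paper's tool, DESeq2 (1.42.0), and edgeR (4.0.16), both on recovered reads, were alternatives, besides pseudocounts, filters, scalings, thresholds, libraries left out and 18 placements of the 2 experiments. Scripts were tested on simulated data. Named with full statistics were called members, regulators and the 5 others with the smallest adjusted p, and from other lists called genes, at most 5 each. Members and lists were chosen with earlier results of these data known. One B cell marker is not reported here. Exonic lengths are GENCODE M21, promoters RefSeq; the promoter window was narrowed from 300 to 250 bases, to print no bases past the start, after the 300-base shares had been seen. With 4 against 4 libraries, the smallest exact permutation p is 0.0286.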

Additional observations from a re-analysis of the deposited data

Results flagged for a closer look

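Of 72 groups of 4 libraries, 4 had a library far from the other 3 (gap over range above 0.83), where chance gives about 1 in 20. Idi1 in Prmt5-null mouse 10771 was at 7483 normalized counts, below the others at 8969 to 9119. Fads1 in Prmt5-null 10617 was at 2435, above 1911 to 1948. Acsl3 was high both in Prmt5-null 10770, at 2958 against 2531 to 2541, and in CTRL-10370, at 4006 against 3477 to 3559.7. Fads1 and Acsl3 remained lower at an adjusted p below 0.05 (limma) without any single library.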

How the results depend on the processing

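Members called lower numbered 10 under each other pseudocount, filter, scaling and tool, without the trend, at an adjusted p below 0.01 and in all 18 experiment placements, 24 without a minimum fold change, and 8 to 11 without 1 library. The 1 called higher was lost (0) without Prmt5-null 10618, so that the range without 1 library was 0 to 1. The median log2 fold change stayed between -0.47 and -0.39. Members lower at an adjusted p below 0.05, whatever the fold, numbered 19 without the trend, 28 by DESeq2 and 19 to 24 without 1 library. Other pathway genes called higher fell from 2 to 1, losing Nr1h3, with a mean above 50 or with no filter, which also lost Soat2 among those called lower, and were 1 to 2 without 1 library, settings chosen for that count after seeing the data. Reversed estimates, all far from the threshold, were Fdft1 without CTRL-10370 (-0.14 to 0.0137 over the fits without 1 library) and the Me1 log2 fold change by edgeR (0.0263), by DESeq2 (0.0262) and without Prmt5-null 10618 (-0.30 to 0.21 over the fits without 1 library). The cause was not tested. Me1 was dropped by the filter at a mean above 50. The experiment could be fitted as a block only over all placements, since libraries are not tied to experiments. Few reads limit Me1, Nr1h3, Soat2 and the Idi1 exon.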
